A study of Mus musculus with 4 samples.

Results

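The 8 genes described here are Acta1, Ankrd1, Ankrd23, Csrp3, Xirp1, Xirp2, Rcan1 and Fhl1, chosen by symbol from the 32285 genes counted, as genes that heart muscle is known to use when it is stretched or overloaded. Earlier results of these data were known when they were chosen. For each gene, the unique molecular identifiers (UMIs, 1 for each captured RNA molecule) were summed over all barcodes of a library and divided by the library's total, giving CPM, a scale on which 10000 is 1% of a library. The counts are of 3′ ends and carry no factor for transcript length. The 4 libraries were droplet libraries of left ventricle from male C57BL/6J mice. Young mice were 3 to 5 months old and aged mice 24 to 26 months. In the I/R groups, ischemia/reperfusion injury was made by 45 min of ischemia, by tying the left anterior descending artery, and 24 h of reperfusion. The others were sham, which the sample labels give as healthy tissue. All mice were wild type and of the same strain. Each of the 4 conditions (sham and I/R at both ages) was 1 library, and the number of mice behind it is not given in the sources used here. No difference below was therefore tested against the spread between mice: the 95% intervals cover counting error only, and an interval that leaves out 0 speaks of these libraries and not of the conditions.

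A cardiomyocyte senses load at several places along the sarcomere, the repeating unit of thick and thin filaments. The Z-disc anchors the actin filaments, the giant protein titin spans from the Z-disc to the middle of the sarcomere, and the intercalated disc joins neighbouring cells. Proteins at these places, among them the muscle LIM protein made by Csrp3 and the ankyrin repeat proteins made by Ankrd1 and Ankrd23, are known to carry signals of strain towards the nucleus. In the pressure-loaded rodent heart, a fetal programme is known to return, in which skeletal alpha-actin (Acta1) joins the cardiac form. The phosphatase calcineurin and its NFAT factors form another arm, and Rcan1 is both a target and an inhibitor of that phosphatase.

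The libraries held 91124 to 102883 barcodes and 25836175 to 66767829 UMIs, with a median of 244, 374, 391 and 675 UMIs per barcode. Where values are listed without names here and below, they run from sham to I/R in the young and then from sham to I/R in the aged mice. All 18 cardiomyocyte markers had UMIs in every library, and together they made up 101130, 88249, 93691 and 109780 CPM. The 10 skeletal muscle markers summed to 20.5 to 32.6 CPM, with 1 or 2 of them at 0 in each library. Most of that sum was Myl1, at 28.2, 21.3, 17.3 and 14.3 CPM, which is also counted among the atrial markers below. The nuclear RNA Malat1 took 7.34%, 2.22%, 2.88% and 4.33% of the UMIs, so that it was lower in I/R among the young mice and higher among the aged. Between 7127 and 7657 barcodes of a library were also found in another library. Leaving them out moved none of the 32 ratios of the 8 genes by more than 0.0185 on the log2 scale. In sums of this kind, fewer cells of a type and less RNA per cell cannot be told apart. Which barcodes held cells was not tested, so a barcode is not read as a cell below.

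The following stretches of promoter are shown because they hold sequence letters known to be bound by factors of muscle and stress response genes. Each is the 250 bases before a RefSeq start site (build GRCm38.p6), outside the annotated exons of its gene, written 5′ to 3′ on the strand of the gene. Capitals mark matches, on either strand, to the CArG box known for serum response factor, to CATTCC (read GGAATG on the other strand), known for TEAD factors, to the MEF2 site, and to TGACGTCA, known for CREB and ATF factors. In Rcan1 alone, capitals also mark GGAAA on either strand, the core letters known for NFAT. Acta1 at chr8:123894776-123895025 (minus strand), Ankrd23 at chr1:36535740-36535989 (minus strand), Xirp2 at chr2:67445752-67446001 (plus strand) and the inner of the RefSeq starts of Rcan1 at chr16:92400079-92400328 (minus strand) read as follows.
Acta1: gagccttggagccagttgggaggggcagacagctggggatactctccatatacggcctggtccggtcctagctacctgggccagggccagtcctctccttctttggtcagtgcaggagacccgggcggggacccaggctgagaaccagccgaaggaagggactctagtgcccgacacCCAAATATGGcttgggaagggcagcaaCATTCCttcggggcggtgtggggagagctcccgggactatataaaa
Ankrd23: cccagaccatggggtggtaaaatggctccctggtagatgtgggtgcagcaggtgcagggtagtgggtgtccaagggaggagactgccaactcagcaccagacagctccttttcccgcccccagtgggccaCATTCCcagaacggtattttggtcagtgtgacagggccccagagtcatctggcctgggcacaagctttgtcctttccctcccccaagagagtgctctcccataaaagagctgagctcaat
Xirp2: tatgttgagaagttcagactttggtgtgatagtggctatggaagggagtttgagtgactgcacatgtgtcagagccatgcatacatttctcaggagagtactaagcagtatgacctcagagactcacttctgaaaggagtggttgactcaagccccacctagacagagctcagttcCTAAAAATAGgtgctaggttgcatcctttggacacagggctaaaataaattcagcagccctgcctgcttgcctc
Rcan1: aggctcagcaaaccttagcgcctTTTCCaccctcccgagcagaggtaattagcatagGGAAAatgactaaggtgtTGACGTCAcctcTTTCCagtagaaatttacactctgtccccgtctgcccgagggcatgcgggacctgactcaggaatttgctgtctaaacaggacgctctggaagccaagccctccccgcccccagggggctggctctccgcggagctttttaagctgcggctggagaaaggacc

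The Acta1 stretch held a CArG box 73 to 64 bases before the start and a CATTCC 46 to 41 bases before it. The Ankrd23 stretch held a CATTCC 120 to 115 bases before its start, and Ankrd1, whose window overlaps an annotated exon of a longer transcript and is not printed, held the same letters at 2 places. The Xirp2 stretch held a MEF2 site 74 to 65 bases before its start. The Rcan1 stretch held TGACGTCA 175 to 168 bases before its start and GGAAA at 3 places. Over the 32851 RefSeq windows of all genes, a CArG box was found in 1.47%, CATTCC in 12.6%, a MEF2 site in 2.92%, TGACGTCA in 1.55% and GGAAA in 55.6%. Among the 11 windows of the 7 genes with an entry, a CArG box was found in 2, CATTCC in 3, a MEF2 site in 1, TGACGTCA in 1 and GGAAA in 5. A match describes letters and is not a measured binding site.

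Acta1 (ENSMUSG00000031972, chr8:123891769-123894751, GRCm38) encodes skeletal alpha-actin, the thin filament actin that the fetal heart shares with skeletal muscle. It was counted at 241 CPM in young sham, 432 CPM in young I/R, 206 CPM in aged sham and 85.2 CPM in aged I/R. Young I/R was the highest library and aged I/R the lowest, with the shams close together. The log2 I/R-to-sham ratio was 0.84 (95% interval 0.80 to 0.88) in the young mice and -1.27 (-1.32 to -1.22) in the aged mice. Between the injured hearts, Acta1 was 5.07-fold lower in aged than in young I/R, or -2.34 on the log2 scale (-2.38 to -2.30), which ranked 6 from the lowest of 13434 genes. Actc1, the cardiac alpha-actin and main actin of the adult sarcomere, was counted at 4865, 4467, 5816 and 3433 CPM in the same order. Acta1 thus made up 4.72% (exact binomial 95% interval 4.61 to 4.84) of the sarcomeric actin UMIs in sham and 8.81% (8.68 to 8.94) in I/R among the young mice, and 3.41% (3.34 to 3.48) and 2.42% (2.36 to 2.48) among the aged. This share needs no scaling between libraries, and it kept the order of the levels. The coding sequences of the sarcomeric actins are near-identical, so the split of their reads is uncertain. Acta2, the smooth muscle actin, was at 82.1, 80.6, 93.1 and 71.5 CPM, without the peak in young I/R. The sum of 5 atrial markers moved with Acta1, at 147, 251, 122 and 93.2 CPM. Of these, Myl4, Myl7 and Sln were highest in young I/R. Myl1 was not, at 28.2, 21.3, 17.3 and 14.3 CPM, nor was Bmp10, with 1, 0, 28 and 12 UMIs. The part of the atrial markers in the result was not tested.

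**Figure D1:**
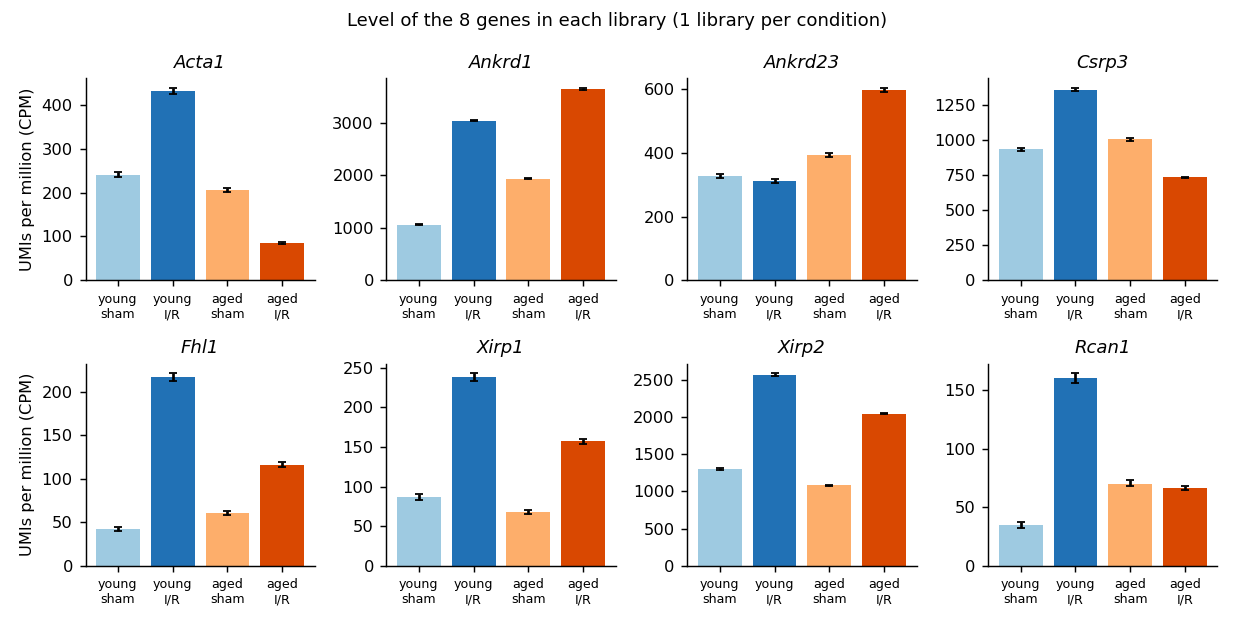
Level of each of the 8 genes, as CPM over all barcodes of a library, in the 4 libraries. Bars start at 0, each panel has its own axis, and error bars are exact Poisson 95% intervals of the count. Acta1, Csrp3, Fhl1, Xirp1, Xirp2 and Rcan1 were highest in young I/R, and Ankrd1 and Ankrd23 in aged I/R.

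Ankrd1 (ENSMUSG00000024803, chr19:36111961-36120099) encodes the cardiac ankyrin repeat protein, which binds the elastic part of titin and is also found in the nucleus. It was counted at 1059 CPM in young sham, 3042 CPM in young I/R, 1936 CPM in aged sham and 3645 CPM in aged I/R, the most abundant of the 8 genes in all libraries but young sham. Both I/R libraries stood above both shams, and aged sham lay between them and young sham. The log2 I/R-to-sham ratio was 1.52 (1.503 to 1.54) in the young and 0.91 (0.90 to 0.92) in the aged mice, and that of aged over young sham 0.87 (0.85 to 0.89). The ratio of aged over young I/R was 0.26 (0.25 to 0.27). It ran from -0.09 to 0.57 over the 5 scalings described below, so its sign and size depend on the scaling. Ankrd23 (ENSMUSG00000067653, chr1:36530188-36536883), a relative that binds the same part of titin, was at 327, 311, 393 and 597 CPM. Its levels set aged I/R apart from the other libraries. The log2 I/R-to-sham ratio was -0.07 (-0.11 to -0.03) in the young and 0.60 (0.58 to 0.63) in the aged mice, and the first of these was above 0 under 3 of 5 scalings. Ankrd2, the remaining member of this titin-binding family and in the main a gene of slow skeletal muscle, had 10 UMIs (0.387 CPM) in young sham, 748 (18.9 CPM) in young I/R, 21 (0.508 CPM) in aged sham and 401 (6.01 CPM) in aged I/R. Its log2 ratios of 5.61 (4.72 to 6.67) in the young and 3.56 (2.93 to 4.27) in the aged mice ranked 8 of 12465 and 9 of 13722 genes.

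Csrp3 (ENSMUSG00000030470, chr7:48830398-48848033) encodes the muscle LIM protein of the Z-disc, and Fhl1 (ENSMUSG00000023092, chrX:56731787-56793346) a protein of 4 LIM domains and an additional partial one, known to bind titin and to take part in load-induced growth. Csrp3 was counted at 932, 1357, 1004 and 732 CPM. As for Acta1, young I/R was the highest library and aged I/R the lowest, over a narrower range. The log2 I/R-to-sham ratio was 0.54 (0.52 to 0.56) in the young and -0.46 (-0.48 to -0.44) in the aged mice, the latter reaching -0.0032 with the libraries scaled by short cardiomyocyte mRNAs. Fhl1 was at 42.3, 216, 60.6 and 116 CPM. It was higher in I/R at both ages, and its young ratio of 2.35 (2.26 to 2.45), a 5.12-fold difference, was the largest of the 8 genes, against 0.94 (0.87 to 1.002) in the aged mice. Its relative Fhl2, a LIM protein abundant in heart muscle, differed the other way: at 900 and 446 CPM in the sham and I/R libraries of the young mice and 901 and 483 CPM in those of the aged, it had log2 ratios of -1.01 (-1.04 to -0.98) and -0.90 (-0.92 to -0.88).

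Xirp1 (ENSMUSG00000079243, chr9:120013755-120023598) and Xirp2 (ENSMUSG00000027022, chr2:67446002-67526614) encode the Xin proteins, which bind actin at the intercalated disc. Xirp1 was at 86.5 CPM in young sham, 238 CPM in young I/R, 67.9 CPM in aged sham and 157 CPM in aged I/R. Xirp2, the more abundant of the pair, was at 1299, 2568, 1081 and 2044 CPM. For both genes, the I/R libraries stood above the shams, and each young library stood above the aged one of the same treatment. The log2 I/R-to-sham ratios were 1.46 (1.39 to 1.53) and 1.21 (1.15 to 1.27) for Xirp1 in young and aged mice, and 0.98 (0.97 to 1.001) and 0.92 (0.90 to 0.94) for Xirp2. Xirp1 shares part of its span, on the same strand, with the macrophage gene Cx3cr1, which was at 5.34, 3.02, 7.69 and 2.86 CPM, lower in I/R at both ages.

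Rcan1 (ENSMUSG00000022951, chr16:92391953-92470867) encodes the calcineurin inhibitor named above, and transcripts from its separate starts cannot be told apart in 3′ counts. It was at 34.9 CPM in young sham, 161 CPM in young I/R, 70.4 CPM in aged sham and 66.5 CPM in aged I/R. Young I/R stood alone, and the aged libraries lay within 1.06-fold of each other, both above young sham. The count of 902 UMIs in young sham, the lowest here, gave the widest relative interval of any level, 32.7 to 37.3 CPM. The log2 I/R-to-sham ratio was 2.20 (2.10 to 2.30) in the young and -0.08 (-0.15 to -0.01) in the aged mice, with the latter at 0.37 when scaled by short cardiomyocyte mRNAs. That of aged over young sham was 1.01 (0.90 to 1.12). The relatives of Rcan1 had no peak of this size: Rcan2 was at 249, 278, 242 and 265 CPM, and Rcan3 at 6.58, 4.89, 6.96 and 8.45 CPM.

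To ask what ischemic injury did at each age, I/R was compared with sham, and a gene with at least 100 UMIs over both libraries was counted as higher or lower at a 2-fold ratio. In the young mice, 4 of the 8 genes (Fhl1, Rcan1, Ankrd1 and Xirp1) were at least 2-fold higher and 0 were 2-fold lower. Of all 12465 genes compared, 2.43% were as much higher and 22% as much lower. Those 4 genes stayed past the limit under all 5 scalings described below, and Xirp2 passed it under 3 of them and Acta1 under 2. The share of all genes was counted with library totals only. The median log2 ratio of the 8 genes was 1.22, and that of all genes -0.44. Because the 8 genes were chosen with earlier results of these data known, their contrasts with all genes are descriptions only. In the aged mice, 1 gene (Xirp1) was at least 2-fold higher and 1 (Acta1) at least 2-fold lower, where 3.58% and 1.5% of 13722 genes were. These calls depend on the scaling: with the libraries scaled by short cardiomyocyte mRNAs, 5 of the 8 genes were 2-fold higher and 0 lower, and by cardiomyocyte markers 0 were higher. These scalings add 0.45 and -0.23 to the log2 ratio of every gene. The share of all genes past the limit was not counted under them, so 3.58% and 1.5% are not the shares to set beside these counts. With library totals, the median was 0.76 for the 8 genes and 0.09 for all genes. With 1 library per condition, neither count rests on replicates.

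**Figure D2:**
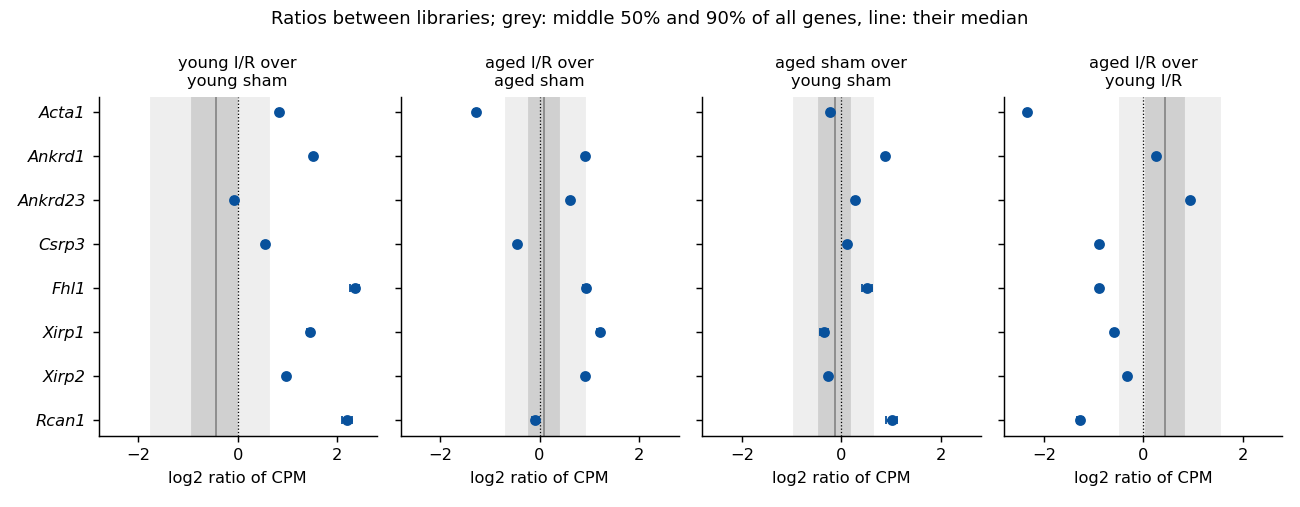
Log2 ratio of CPM for each of the 8 genes in 4 comparisons of libraries, with 95% intervals for counting error (most are narrower than the points). Dark and light grey bands hold the middle 50% and 90% of all genes compared, and the grey line is their median. In young I/R over young sham, 6 of the 8 points lie to the right of the light band, and in aged I/R over young I/R, 5 lie to its left.

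To ask what age did, the aged were compared with the young libraries. In sham hearts, 1 of the 8 genes (Rcan1, just past the limit) was at least 2-fold higher in the aged library and 0 were 2-fold lower, against 1.57% and 4.49% of 12901 genes. The median log2 ratio was 0.19, and that of all genes -0.14. Acta1, Xirp1 and Xirp2 were lower in aged sham, with log2 ratios of -0.23, -0.35 and -0.27, and Csrp3, Ankrd23, Fhl1 and Ankrd1 higher, with 0.11, 0.27, 0.52 and 0.87. When scaled by short cardiomyocyte mRNAs, Csrp3 turned to -0.23 and Ankrd23 to -0.077. In I/R hearts, 0 of the 8 were at least 2-fold higher in the aged library and 2 (Acta1 and Rcan1) at least 2-fold lower, where 16.8% and 0.863% of 13434 genes were. The median was -0.75 for the 8 genes and 0.43 for all genes. Besides Acta1 and Rcan1, the log2 ratios of aged over young I/R were -0.90 for Fhl1, -0.89 for Csrp3, -0.60 for Xirp1, -0.33 for Xirp2, 0.26 for Ankrd1 and 0.94 for Ankrd23.

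The difference between the ages in the response to I/R was taken as the aged log2 ratio minus the young one, which share no library. It was -2.28 (-2.41 to -2.16) for Rcan1, -2.11 (-2.18 to -2.05) for Acta1, -1.42 (-1.53 to -1.31) for Fhl1, -0.998 (-1.03 to -0.97) for Csrp3 and -0.61 (-0.63 to -0.59) for Ankrd1. Smaller differences of -0.25 (-0.34 to -0.16) for Xirp1 and -0.06 (-0.09 to -0.04) for Xirp2 followed, and Ankrd23 alone had a positive one, 0.67 (0.63 to 0.72). The median of the 8 was -0.80, beside 0.54 over the 12448 genes compared at both ages. Malat1 had log2 ratios of -1.72 in the young and 0.59 in the aged mice, and Ttn, the titin transcript, -0.77 and 0.93. The part of the nuclear RNA in these differences was not tested.

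**Figure D3:**
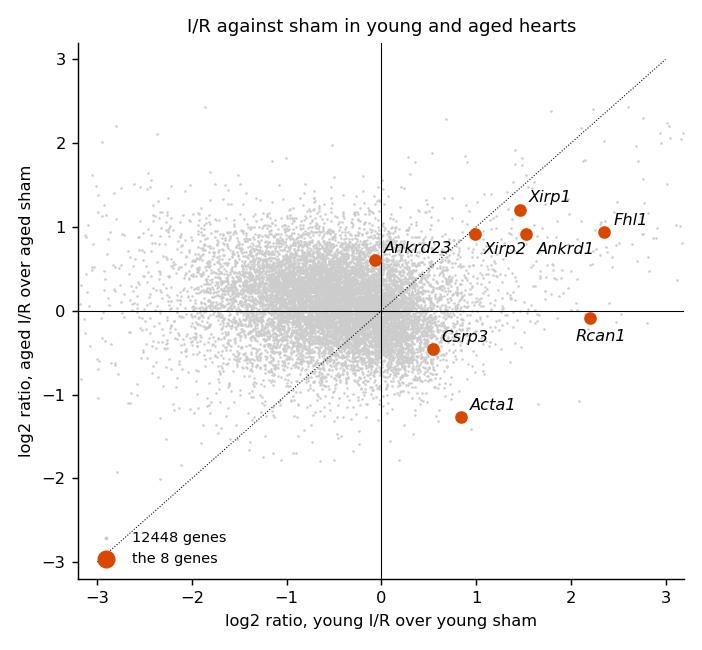
Log2 ratio of I/R over sham in young mice (x axis) and aged mice (y axis), for the 8 genes (orange) and 12448 genes with at least 100 UMIs in both comparisons (grey; 62 of them lie outside the axes). The dotted line marks equal ratios. Xirp1, Xirp2, Ankrd1 and Fhl1 lie above 0 at both ages, Acta1 and Csrp3 above 0 in the young and below 0 in the aged mice, and Rcan1 at 2.20 and -0.08.

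Dividing by the library total is only 1 way of making the libraries comparable, so the ratios were recomputed under 4 other scalings. These used the median of the gene-wise ratios, the total without Gm42418, Malat1 and mitochondrial genes, the sum of the 18 cardiomyocyte markers, and, added after the values were seen, the sum of 7 short and abundant cardiomyocyte mRNAs (Actc1, Myl2, Myl3, Tnnc1, Tnni3, Mb and Ckm). The median of gene-wise ratios added 0.41 to every log2 ratio in the young and -0.09 in the aged mice, whereas the short mRNAs added -0.19 and 0.45. In young I/R over sham, Acta1, Ankrd1, Csrp3, Fhl1, Xirp1, Xirp2 and Rcan1 were above 0 under all 5 scalings. In aged I/R over sham, Ankrd1, Ankrd23, Fhl1, Xirp1 and Xirp2 were above 0 and Acta1 below 0 under all 5. Csrp3 there ranged from -0.68 to -0.0032, the latter, with the short mRNAs, being within counting error of 0. Acta1 ranged from 0.65 to 1.25 in the young and from -1.4995 to -0.82 in the aged mice. The negative age difference held under all 5 scalings for Rcan1 (-2.78 to -1.64), Acta1 (-2.61 to -1.46), Fhl1 (-1.92 to -0.77) and Csrp3 (-1.496 to -0.35). With the short mRNAs, it turned to 0.04 for Ankrd1, 0.40 for Xirp1 and 0.58 for Xirp2.

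**Figure D4:**
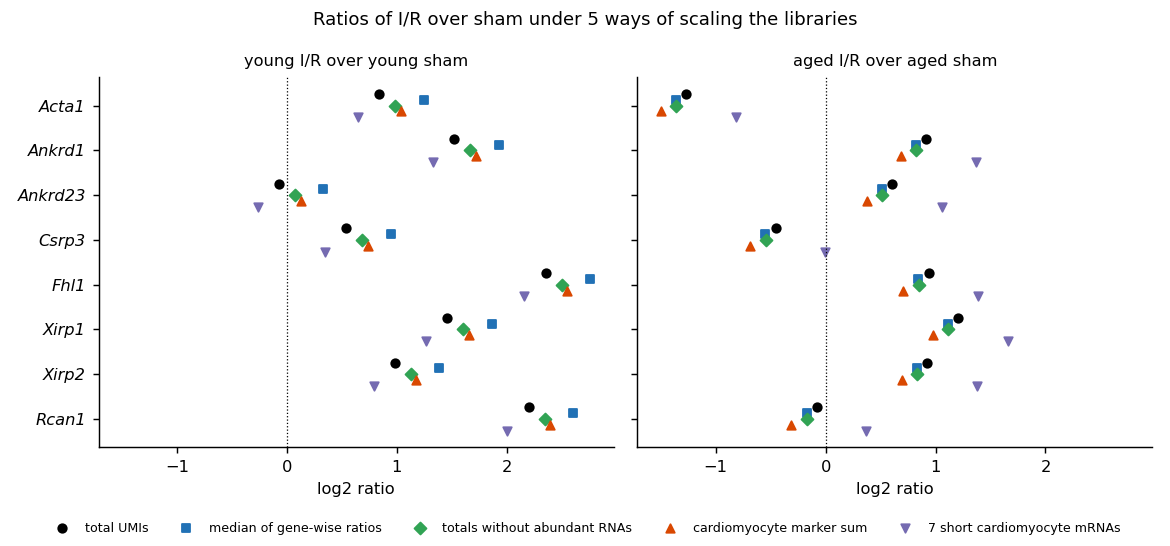
Log2 ratio of I/R over sham for the 8 genes in young (left) and aged (right) mice under 5 scalings of the libraries, each with its own marker. A scaling moves all genes of a panel by the same amount: the short cardiomyocyte mRNAs give the lowest values in the young and the highest in the aged mice, and Ankrd23 in the young and Rcan1 in the aged mice change sign.

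Genes that work beside the 8 were taken from lists of the pathways, and their counts are read against the shares of all genes given above. Of the 20 mechanosensor and Z-disc partners, 3 were at least 2-fold higher and 1 lower in young I/R over sham (2.43% and 22% of all genes), and 1 higher and 1 lower in the aged (3.58% and 1.5%). Lmcd1, a LIM protein linked to calcineurin, was at 71.3 CPM in young I/R and 19.4 in young sham (log2 ratio 1.88), Flnc, the filamin of the Z-disc, at 517 and 156 (1.73), and Synpo2l, an actin-binding Z-disc protein, at 223 and 74.7 (1.58). In the aged mice, their ratios were 0.17, 0.14 and 0.07. The aged calls were Tcap, the titin cap, at 1077 CPM in I/R and 2202 in sham (-1.03), and Tln2, a talin, at 78.0 and 38.9 (1.002). Lmcd1 and Flnc had the lowest ratios of aged over young I/R in this list, -1.53 and -1.43. In the sham comparison, Synpo2l was at 0.75 and Tln2 at -0.73.

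Of the 12 titin N2A and ubiquitin ligase partners, 2 were 2-fold higher and 1 lower in the young (2.43% and 22% of all genes), and 2 higher and 0 lower in the aged mice (3.58% and 1.5%). Beside Ankrd2, Trim54, a ligase of the sarcomere, was at 365 CPM in young I/R and 181 in young sham (1.01). Its relative Trim55 went opposite ways, with log2 ratios of -1.49 in the young and 1.51 in the aged mice, -1.23 between the shams and 1.77 for aged over young I/R. The titin transcript itself was at 31744, 18615, 18041 and 34439 CPM.

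Of 15 calcineurin and NFAT genes, 0 were 2-fold higher and 4 lower in young I/R over sham, a share near the 22% of all genes that were as much lower, and 0 were past the limit in either direction in the aged (3.58% and 1.5% of all genes). Akap5, which anchors calcineurin, was at 0.907 CPM in young I/R and 8.21 in young sham (-3.18, with -0.81 in the aged), Nfatc2 at 6.35 and 25.1 (-1.98) and Nfatc4 at 5.12 and 12.3 (-1.27). Ppp3r1, the regulatory subunit of calcineurin, was at 0.41 in the young, -0.41 in the aged and 0.60 between aged and young sham. The list median in the young mice was -0.57, close to the -0.44 of all genes. In aged over young I/R, 2 of the 15 were 2-fold higher, Nfatc2 at 1.49 and Akap5 at 1.42, and 0 lower, where 16.8% and 0.863% of all genes were.

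Of the 15 SRF and myocardin factors with actin targets, 0 were past 2-fold in the young (2.43% and 22% of all genes higher and lower) and 1 was lower in the aged mice (1.5% of all genes), Egr1, an immediate early gene, at 20.4 CPM in aged I/R and 66.3 in aged sham (-1.70). Its young ratio was -0.94, that of Myocd, the cofactor myocardin, -0.83, and that of Actb, the cytoplasmic actin, 0.66. Srf itself was at 0.92 in the aged mice and -0.77 for aged over young sham, and Myocd at -0.77 and, for aged over young I/R, 0.78. Of the 14 YAP and TEAD genes, 1 was 2-fold higher and 1 lower in the young, beside 2.43% and 22% of all genes: Ccn2, a secreted target of this pathway, at 140 CPM in I/R and 20.8 in sham (2.75), and Vgll4, a TEAD inhibitor, at 11.4 and 33.9 (-1.57). Lats1, a kinase of the pathway, was at -0.88 there. In the aged mice, Tead4 (1.06) was past the limit, as 3.58% of all genes were, and Ccn2 (0.92) was not. Ccn2 was also higher in aged than in young sham (1.53), where Vgll4 was at -0.83, and in aged over young I/R, Vgll4 was at 1.38 and Lats2 at 0.73.

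Of 24 ligands, receptors and transcription factors of hypertrophy with enough UMIs, 5 were 2-fold higher and 5 lower in the young, beside 2.43% and 22% of all genes, and 3 higher and 1 lower in the aged mice, beside 3.58% and 1.5%. The largest young ratios were those of Myc (2.49), Atf3 (2.32), a stress response factor, and Nppb (2.05), the B-type natriuretic peptide, the first 2 of them from 1.08 and 2.09 CPM in sham. In the aged mice, Myc was at 1.30 and Nppa, the atrial natriuretic peptide and a classical marker of hypertrophy, at -1.12. Nppa was at 335, 1055, 821 and 379 CPM, higher in I/R among the young and lower among the aged, as Acta1 and Csrp3 were. Nppa was also higher in aged than in young sham, as Csrp3 was (log2 ratio 0.11) and Acta1 was not (-0.23). Myh7, the fetal beta-myosin heavy chain, was at 72.3, 93.9, 1174 and 594 CPM, with a log2 ratio of aged over young sham of 4.02 and of aged over young I/R of 2.66. It overlaps the transcript Mhrt, which is antisense to it, and the part of this overlap in its count was not tested. Nppb was at 1.33 for aged over young sham, and Hdac9 at 1.63 for aged over young I/R. Of these parts of the fetal programme, Acta1 and Nppa were highest in young I/R and Myh7 in aged sham.

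The next question was whether the 8 genes were counted in some barcodes more than in others. Each barcode with at least 200 UMIs was thinned to 200, which left out 25914, 4608, 4424 and 0 barcodes below that depth. A UMI of any of the 8 genes was then found in 54.8%, 80.5%, 61.7% and 77.3% of the barcodes kept. Before thinning, it was found in 64.1%, 93.2%, 82.7% and 98.6% of all barcodes. Macrophages should lack the sarcomere genes among the 8, but this need not hold for each of them, such as the calcineurin inhibitor Rcan1. Barcodes with at least 3 UMIs of macrophage markers gave 47.9%, 77.8%, 64.7% and 75.9%, from 75, 39, 356 and 960 barcodes with median depths of 375, 513, 550 and 936.5 UMIs. Apart from young sham (54.8% against 47.9%), the shares were close to those of all barcodes thinned. These marker barcodes were not shown to be macrophages, and the shares say nothing of how many cells expressed the 8 genes.

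Barcodes with at least 200 UMIs were then ranked by the share of their UMIs from cardiomyocyte markers, and the top quartile compared with the bottom. The 8 genes together were at 8354 CPM in the bottom and 8260 in the top quartile of young I/R, at 4791 and 4790 in aged sham, and at 7292 and 7443 in aged I/R. Young sham had the largest slope, from 3645 to 4146 CPM, a log2 ratio of top over bottom of 0.19. In aged I/R, that ratio was 0.03 (0.02 to 0.04), a sum over single genes of opposite sign, from -0.16 for Fhl1 to 0.20 for Ankrd23. Of the 32 log2 ratios of top over bottom quartile, 26 lay within 0.2 of 0, and the largest were those of Rcan1 (0.48) and Xirp1 (0.43) in young sham. Ranked without Ttn among the markers, 20 of the 32 lay within 0.2 of 0, but the libraries were not alike in this. With and without Ttn, the number was 3 and 2 of 8 in young sham and 8 and 4 in young I/R. It was 8 and 6 in aged sham and 7 and 8 in aged I/R. Without Ttn, young sham had Rcan1 at 0.89, Acta1 at 0.81 (0.69 to 0.92) in place of 0.09 and Csrp3 at 0.70 in place of 0.22. The 8 genes together were then 1.31-fold higher in the top quartile of young sham. Barcodes with at least 3 UMIs of a cell type's markers were also compared with the others, though deep barcodes reach this limit more readily. In aged I/R, 15358 of 91124 barcodes passed it for endothelial markers, with a median of 849.5 UMIs against 675 in the library. Such barcodes were not shown to be cells of that type, so ratios near 0 say nothing of cell types. In barcodes with at least 3 UMIs of endothelial or of fibroblast markers, 61 of 64 ratios to the other barcodes lay within 0.2 of 0. In the macrophage marker barcodes, all 8 ratios of aged I/R and 5 of 8 of aged sham did. The young libraries had only 75 and 39 such barcodes, in which Acta1 was at -2.06 (-5.10 to -0.20) in sham and Ankrd23 at -1.90 (-4.95 to -0.05) in I/R, each from 2 UMIs, with Xirp1 and Rcan1 at 0 UMIs in sham. Ranked with Ttn, the ratios between libraries were much the same inside the quartiles, where 61 of 64 lay within 0.2 of the whole-library ratio and 1, that of Ankrd23 in the bottom quartile of the young mice, had the other sign. Acta1 in I/R over sham was at 0.93 and 0.88 in the bottom and top quartile of the young and at -1.23 and -1.40 in those of the aged mice. Ranked without Ttn, these ratios were not computed, and they need not be alike in all quartiles. Acta1, whose top over bottom ratio moved the most, was then at 181 and 317 CPM in the bottom and top quartile of young sham. It was at 403 and 471 CPM in those of young I/R and at 189 and 220 CPM in those of aged sham. In the bottom quartile, the intervals of aged sham (181 to 197 CPM) and young sham (170 to 193 CPM) overlapped. In the top quartile, aged sham lay below young sham.

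**Figure D5:**
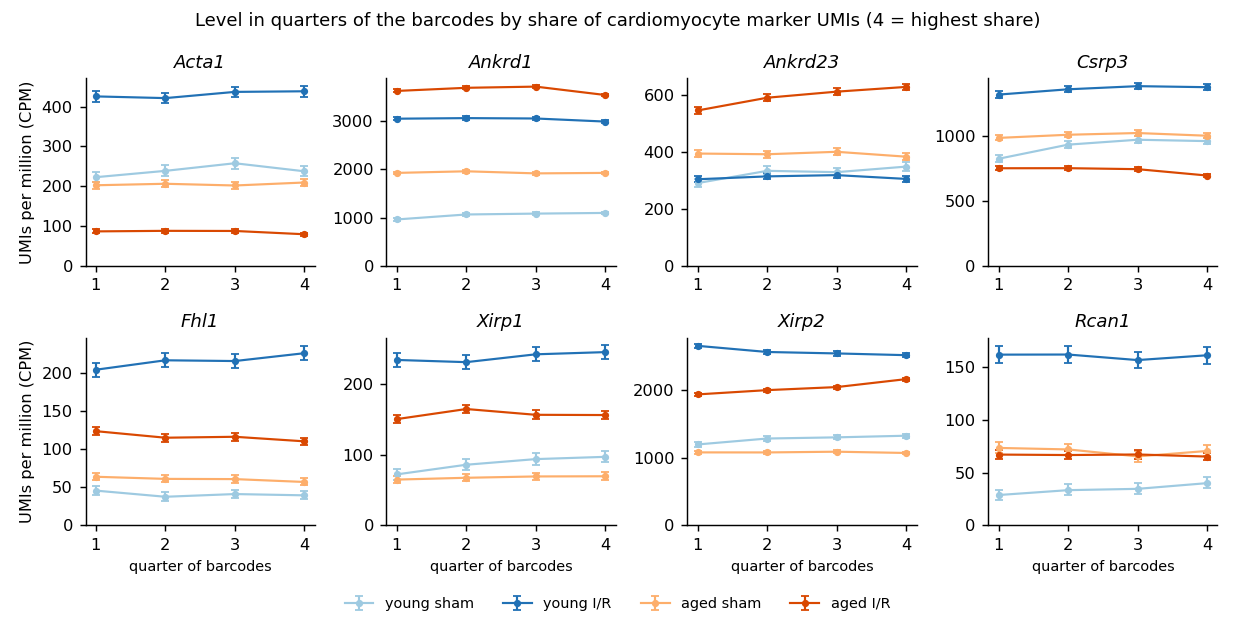
CPM of the 8 genes (y axis, from 0) in quartiles of the barcodes of each library, ranked by the share of their UMIs from 18 cardiomyocyte markers (x axis, 4 = highest share). Lines are libraries and error bars exact Poisson 95% intervals. Ttn is among the markers, the lines are close to level, and the libraries keep their order in nearly every quartile.

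How evenly a gene was spread was also given as an index, the squared deviation of its UMIs per barcode from those expected at an equal level in all barcodes, over the variance that counting alone gives. An index of 1 is counting alone. The 32 indices of the 8 genes ran from 0.996 to 1.53, and those of Acta1, Csrp3, Xirp1, Rcan1 and Fhl1 from 0.996 to 1.07. Hbb-bs, a hemoglobin of red cells, had 12.7 to 24.8, Malat1 11.7 to 19.3 and Ttn 2.56 to 5.20. The index grows with the level of a gene: Myl7 and Myl4, atrial genes of low level found in the same barcodes, had only 1.07 to 1.55. An index near 1 therefore does not show that a gene of low level, such as Rcan1, Fhl1 or Xirp1, was evenly spread. Barcodes with Ankrd1 in the top quartile differed little from those without it: 27 of 28 log2 ratios of the other genes lay within 0.2 of 0, with Rcan1 in young sham at 0.42. Over all barcodes with 200 UMIs, Xirp1 differed by log2 -0.07 to 0.08 between barcodes with and without Ankrd1, whereas Myl7 differed by 1.14 to 4.50 between barcodes with and without Myl4, its atrial partner. Other pairs from a shared cell type differed less: the fibroblast collagen Col3a1 by 0.37 to 0.55 with Col1a2, and the macrophage gene C1qb by 0.06 to 0.49 with C1qa, where every interval held 0. A small ratio was therefore also found for pairs known from a shared cell type. Whether these barcodes held single cells was not tested.

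Some barcodes held many UMIs of Xirp2, Ankrd1 or Ankrd23. Xirp2 had its highest index, 1.53, in young I/R, where 42 barcodes held at least 20 UMIs of it, up to 59 in a barcode. In these barcodes Malat1 was at 208920 CPM and Ankrd1 at 3242 CPM, the latter close to its level in the library, and they held 1.12% of the Xirp2 UMIs. In aged I/R, 14 such barcodes, with up to 74 Xirp2 UMIs, had Malat1 at 153840 CPM. For Ankrd1, 13 barcodes of aged I/R and 4 of aged sham held at least 20 UMIs, with up to 102 and 62, and no barcode of the young libraries did. Ankrd23 reached 29 UMIs in a barcode of aged I/R. The limit of 20 UMIs was chosen after these values were seen. In the 1% of barcodes with the most UMIs, the log2 ratio to the rest was 0.49 for Xirp2 in young I/R and -0.76 for Acta1 in young sham, and Malat1 stood at 0.86 to 1.40 in all 4 libraries.

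Genes whose levels over the 4 libraries were most like those of the 8 were sought among 10533 genes with at least 100 UMIs in every library, by the root mean square difference of centred log2 CPM. With 4 points this is a description only. Nearest to the mean profile of the 8 were Snhg6 (0.06), Tuba1c (0.07), Tox3 (0.07), Slc35e4 (0.08) and Glul (0.08). The 8 genes themselves lay farther from this mean, from 0.23 (Xirp2) to 0.80 (Acta1), so it is not a profile that they share. The nearest gene to Acta1 was Sln (0.23), the sarcolipin of atrial muscle, at 21.3, 45.2, 18.9 and 11.2 CPM. Ankrd23 was nearest to Slc6a6 (0.04), Csrp3 to Iba57 (0.02), Ankrd1 to Msr1 (0.11), Fhl1 to Tubb6 (0.09), Xirp1 to Tacc2 (0.15), Xirp2 to Txnrd1 (0.07) and Rcan1 to Gm13889 (0.13).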

How the data were processed

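Left ventricles of 4 groups, with 1 library each, had been prepared on the 10x Chromium system, and reads had been aligned to mm10 with Cell Ranger 6.0.2, as the submitters' processing notes give it. The values deposited by the authors are unscaled UMI counts for each gene in each barcode. The labels give nuclear RNA as the molecule, where the paper gives single cells. Groups were taken from the labels.

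UMIs were summed over all barcodes and given as CPM. Intervals at 95% are exact Poisson for a level, exact binomial for a share and exact conditional for a ratio, and a normal approximation on the log scale for a difference of ratios. All cover counting error only. Total UMIs of 25836175 to 66767829 set the precision. No test was made. The 8 genes and the pathway and marker lists were chosen with earlier results of these data known. Named beside the 8 genes are their relatives and, from each list, the 3 genes with the largest log2 ratio of either sign in young I/R over young sham and the 2 largest in each other comparison. The ratio intervals were tried on simulated counts with counting error alone, the error that they assume. That trial says nothing of the spread between mice. No clusters or doublet calls were used. Positions are from GENCODE vM21 and promoters from RefSeq. Python 3.11.15, NumPy 2.4.6, SciPy 1.17.1, pandas 2.3.3 and matplotlib 3.10.9 were used.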

Additional observations from a re-analysis of the deposited data

Results flagged for a closer look

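For 4 of the 8 genes, the log2 ratio of I/R over sham had opposite signs in young and aged mice. The share of all genes with opposite signs was not counted. The median over all genes was itself -0.44 in the young and 0.09 in the aged mice, so the 4 are not read as a trait of these genes. Acta1 was at 0.8404 in the young and -1.2709 in the aged mice, Csrp3 at 0.5422 and -0.4563, Rcan1 at 2.2018 and -0.0825, and Ankrd23 at -0.0719 and 0.6030. Each direction is 1 library against 1, and the difference between the ages was not tested against the spread between mice. The aged value of Rcan1 and the young value of Ankrd23 are close to 0 and change sign with the scaling. The aged value of Csrp3 reaches -0.0032 when scaled by short cardiomyocyte mRNAs. Malat1 (-1.72 and 0.59) and the atrial marker sum (0.78 and -0.39) also differed in sign between the ages, and their part in these results was not tested.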

How the results depend on the processing

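No paired analysis was possible because each condition has 1 library and no result comes from a test. The smaller UMI minimum of 20 (12 values) and the removal of shared barcodes (52 values, added after the values were seen) moved none by more than its counting interval or 1.5 times, and keeping only barcodes with at least 200 detected genes moved 19 of 52 and reversed none. In what follows, scaling A is the median of gene-wise ratios, B the total without Gm42418, Malat1 and mitochondrial genes, C the sum of cardiomyocyte markers and D the sum of 7 short cardiomyocyte mRNAs, D being added after the values were seen. The median log2 ratio of the 8 genes in young I/R over sham was 1.63 (A), 1.37 (B), 1.42 (C) and 1.03 (D), in aged I/R over sham 0.67 (A), 0.67 (B), 0.53 (C) and 1.21 (D), in aged over young sham 0.33 (A), 0.26 (B), 0.30 (C) and -0.16 (D), and in aged over young I/R -1.10 (A), -0.91 (B), -1.06 (C) and -0.44 (D). In young I/R over sham, Xirp2 was at least 2-fold higher under 3 of 5 scalings and Acta1 under 2. In aged I/R over sham, 0 genes (C) or 5 (D) were 2-fold higher and 0 (D) lower, and 5 passed a fold of 1.5. In aged over young sham, 2 (A), 0 (D) and, at a fold of 1.5, 2 were higher. In aged over young I/R, 4 (A), 4 (B), 4 (C) and 1 (D) were lower and 1 (D) higher, with 5 lower and 1 higher at a fold of 1.5. The shares of all genes were not counted under these scalings or at this fold. Those given above hold only for library totals and a 2-fold ratio, so these counts show how the calls move and nothing about the 8 genes against the rest. Single values changed sign as follows: Ankrd23 in young I/R over sham at 0.33 (A), 0.074 (B) and 0.12 (C), Ankrd1 in aged over young I/R at -0.095 (A) and -0.054 (C), and, under D, Ankrd23 (-0.077) and Csrp3 (-0.23) in aged over young sham, Rcan1 in aged I/R over sham (0.37), and the age difference of Ankrd1 (0.038), Xirp1 (0.40) and Xirp2 (0.58). With Ttn left out of the cardiomyocyte markers, 17 of the 32 ratios of top over bottom quartile moved, the most that of Acta1 in young sham (0.81), and 6 changed sign: the top over bottom quartile ratio turned to 0.044 for Ankrd1 in young I/R and, in aged I/R, to 0.15 for Acta1, 0.10 for Ankrd1, 0.18 for Csrp3, 0.081 for Fhl1 and -0.0018 for Xirp2. Each scaling shifts all genes of a comparison alike, and the other causes were not tested. Thinning to 150 UMIs, over barcodes with at least 150, gave shares of barcodes with any of the 8 genes of 45.4% to 70.8%. Splitting by Xirp2 in place of Ankrd1 moved 3 of 24 ratios and reversed none. Depth limits Rcan1 and Fhl1 in young sham most, with 902 and 1092 UMIs.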

Other observations

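Neutrophil markers, read in the same libraries because injured heart recruits these cells, were higher in I/R at both ages: the 6 genes summed to 14.2 and 95.6 CPM in the sham and I/R libraries of the young mice and 23.2 and 95.8 CPM in those of the aged. The log2 ratio of the sum was 2.75 in the young and 2.05 in the aged mice. Macrophage markers summed to 389, 276, 586 and 509 CPM, mural cell markers to 728, 505, 721 and 713 CPM and erythroid markers to 2567, 1957, 1691 and 1025 CPM. Fibroblast markers summed to 1387, 1080, 1914 and 1380 CPM and endothelial markers to 1849, 1504, 1957 and 1857 CPM. Among Z-disc and stress proteins, Des, the intermediate filament desmin, was at 1185, 2304, 1464 and 1791 CPM, and Cryab, its small chaperone, at 1311, 2445, 1376 and 1170 CPM. These last were named after their values were seen.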
